A study of Mus musculus with 15 samples.

Results

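Lipopolysaccharide (LPS) sensing and the acute phase response were followed through 9 genes: Lbp, Cd14, Ly96, Tlr4, Tlr2, Lcn2, Saa3, Hp and Serpina3n. They were taken as a given list by symbol, out of 24650 genes with a value in some library and 55450 annotated genes. The list was drawn up with earlier results of these data in view, and which values led to it is not recorded, so the members' levels and calls below are descriptions. All 9 were found in the annotation, and none overlaps another annotated gene.

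RNA was sequenced from 15 mouse libraries in 5 groups of 3. The mice were C57BL/6, and the tumors were grown from GL261, a mouse glioma cell line implanted in the animals. The groups were healthy brain with no tumor, untreated tumor (a dose of 0 µg), and tumor treated with B20.4.1.1, a monoclonal antibody against VEGF-A, at 50, 100 or 200 µg per dose. Treatment began on day 10 after implantation and was given every 3 days until the endpoint. Tumors were collected after perfusion with PBS, and libraries were built from 1 µg of total RNA. The labels speak of individual samples within a group and do not say more of their origin, so p-values measure only the spread between these samples, which may be technical. Groups follow the sample titles, and a second label naming the agent goes against the title for 4 tumor libraries, replicate 3 of each tumor group. It reads 50 µg for the untreated library, 100 µg for that titled 50 µg, 200 µg for that titled 100 µg and no agent for that titled 200 µg. Values with libraries grouped by this label, the last one left out, stand beside the results for Lbp, Tlr4 and Hp.

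LPS, a lipid of the outer wall of Gram-negative bacteria, is picked up in body fluids by LPS-binding protein (Lbp) and passed to Cd14, which hands it to the receptor complex of Tlr4 and Ly96 (also called MD-2). Tlr2 senses bacterial lipoproteins and can also use Cd14. Both receptors act through adaptors such as Myd88 on NF-kB. Acute phase proteins are secreted in inflammation, classically by liver cells under interleukin 6 family cytokines, STAT3 and C/EBP factors. Brain cells can make some of them too, and Lcn2 and Serpina3n are widely used as marks of reactive astrocytes.

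Levels are given as FPKM, fragments per kilobase of gene and M mapped fragments, and are relative to the total of a library. Estimated depth was 22.0 to 41.7 M fragments in the tumor libraries and 19.3 to 70.4 M in brain. The summed level of 8 neuron markers was 1888 to 2750 FPKM in brain and 4.30 to 19.2 FPKM in tumors, and that of 8 proliferation markers was 2.27 to 5.01 and 175 to 455 FPKM. The tumor libraries were also unequal in assembly. Genes listed in several pieces made up 1.59% of genes in replicate 3 at 100 µg and 1.75 to 1.95% in the 200 µg libraries. The share was 5.05 to 7.48% in 7 others and 18.9% in replicate 3 at 50 µg. The 4 libraries with few genes in pieces thus include all of the 200 µg group, and for 200 µg against untreated tumor this property and the dose cannot be told apart. In bulk tissue, fewer cells of a type and less RNA per cell cannot be told apart either.

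**Figure D1:**
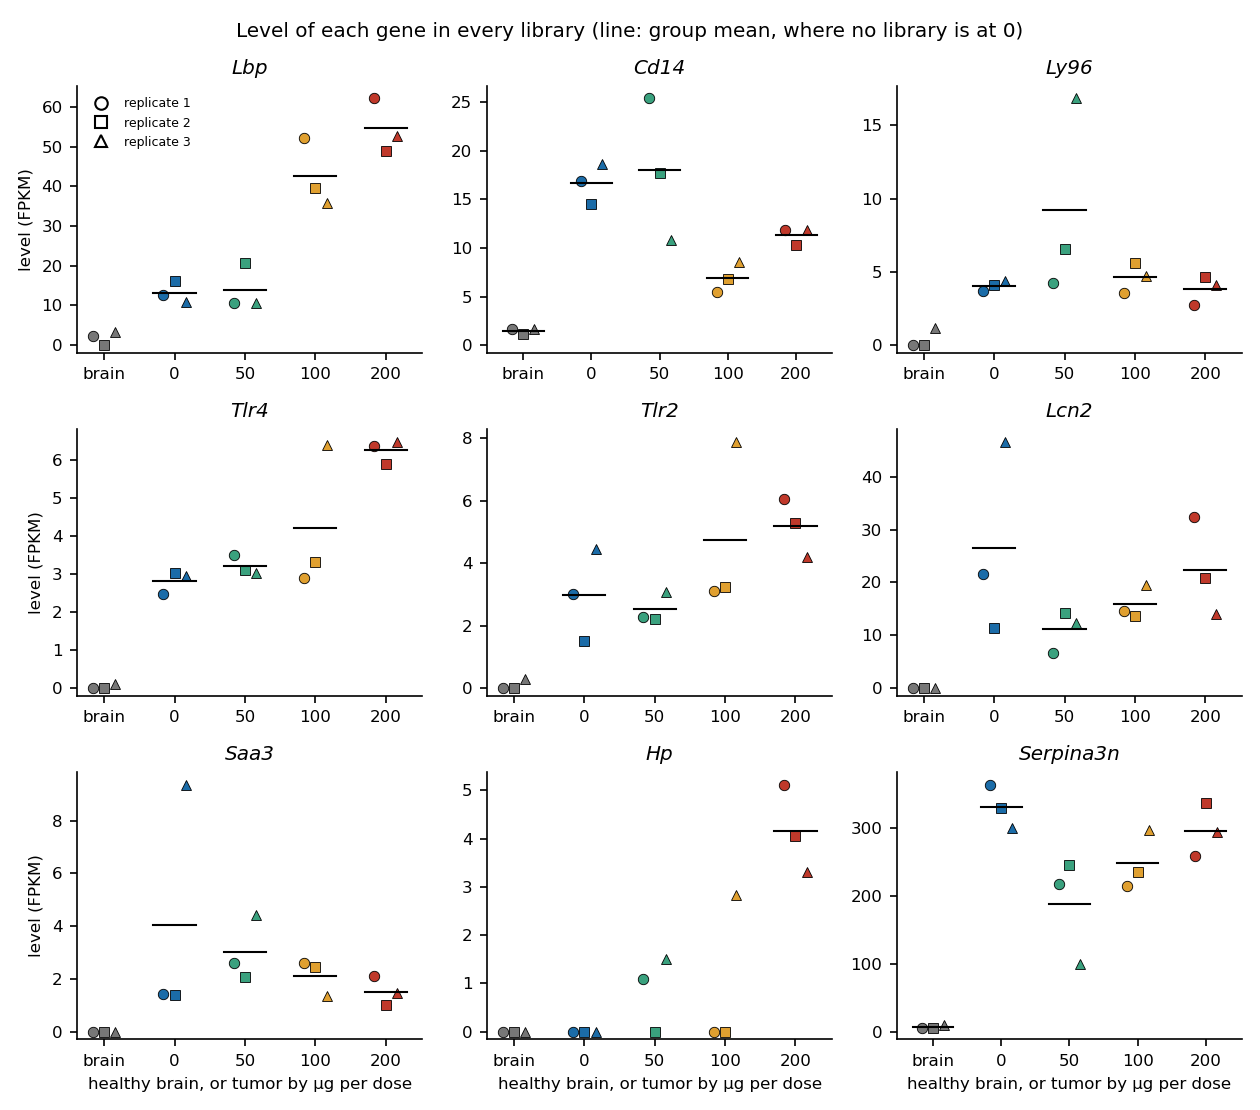
Level of each of the 9 genes in every library, in FPKM (y axis), for healthy brain and for tumors at 0, 50, 100 and 200 µg of antibody per dose (x axis). Symbols mark the replicate number, and a line marks the mean of a group in which no library is listed at 0. Lbp is high in all 6 libraries at 100 and 200 µg, while Hp is above 2 FPKM only in the 200 µg libraries and in replicate 3 at 100 µg.

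Untreated tumor was set against healthy brain to ask how the LPS sensing and acute phase genes differ between the glioma and its host tissue. All 8 members that could be tested were called higher in tumor. Serpina3n was the most abundant, and Hp was listed at 0 in all 6 libraries and was not tested. Ly96, Tlr4, Tlr2, Lcn2 and Saa3 averaged below the 1 FPKM needed for testing in brain and entered the fit through their tumor levels. Their calls and adjusted p-values are thus descriptions and no support, and so are the count of members called and the median of the members. Across the genome 60.7% of 16340 genes were called in this comparison and 32.7% were called higher. The median difference of the 8 members was 2.24 in log2(FPKM + 1), against 0.14 for all genes tested. Median-of-ratios scaling moved that median of all genes to -0.08.

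The 3 healthy brain libraries stood at 2.44, 0 and 3.27 FPKM for Lbp, and the untreated tumors at 12.7, 16.0 and 10.8 FPKM. Every tumor library exceeded every brain library (difference 2.52 in log2(FPKM + 1), SE 0.55, adjusted p = 0.00801 by limma). This call ended when the FPKM of transcripts was summed without weighting (adjusted p = 0.141), when only transcripts matching an intron were summed (0.0635) and with a pseudocount of 0.1 (0.0621). In the unweighted sum brain replicate 1, with 24.8% of its genes in pieces, held 16.0 FPKM of Lbp, and the part of this was not tested. Cd14, the surface co-receptor of monocytes and macrophages, was at 1.64, 1.18 and 1.64 FPKM in brain and 16.9, 14.5 and 18.6 FPKM in untreated tumor. The means were 1.49 ± 0.268 and 16.7 ± 2.08 FPKM (SD, n = 3), 11.2-fold apart, and limma put the log2 difference at 2.83 (SE 0.17, adjusted p = 3.73e-05). Ly96, the small protein that holds LPS in the Tlr4 complex, was at 0, 0 and 1.19 FPKM in brain and 3.67, 4.08 and 4.38 FPKM in tumor. Its adjusted p was 0.00272.

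Tlr4, the LPS receptor itself, was barely listed in brain, at 0, 0 and 0.119 FPKM. In untreated tumor it was at 2.48, 3.04 and 2.94 FPKM (adjusted p = 9.8e-05 by limma, but 0.197 with the unweighted sum). Tlr2 was at 0, 0 and 0.316 FPKM in brain. In tumor it reached 3.01, 1.52 and 4.45 FPKM (adjusted p = 0.00282). Ly96, Tlr4 and Tlr2 were each listed in brain in replicate 3 alone, the brain library with the fewest genes in pieces (24.8, 12.6 and 2.46% in replicate order), and the part of this in their calls was not tested. Both receptors were low in absolute terms in tumor, below Cd14 and Lbp in each of the 3 untreated libraries.

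Among the acute phase genes, Lcn2, a siderophore-binding lipocalin, was listed at 0 in the 3 brain libraries. In untreated tumor it was at 21.6, 11.4 and 46.6 FPKM (adjusted p = 0.000283 by limma), with replicate 3 the highest. Saa3, a serum amyloid A made outside the liver, was also listed at 0 in brain. In untreated tumor it was at 1.44, 1.38 and 9.36 FPKM (adjusted p = 0.0250), and replicate 3 again stood above the other two. The Saa3 call was lost with a pseudocount of 5 (adjusted p = 0.0873) and without any single brain library. Serpina3n, a secreted inhibitor of serine proteases, was at 5.08, 5.04 and 10.5 FPKM in brain and 364, 330 and 300 FPKM in tumor. Its mean rose 48.1-fold, from 6.88 ± 3.15 to 331 ± 31.9 FPKM (SD, n = 3), and the log2 difference was 5.46 (SE 0.29, adjusted p = 2.44e-05).

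Markers of other cells moved with this comparison. The summed level of 16 monocyte and macrophage markers was 38.4 to 52.8 FPKM in brain and 216 to 454 FPKM in untreated tumor, and 12 of 14 tested were higher. That of 10 astrocyte markers was 465 to 519 and 79.7 to 115 FPKM, with all 10 lower and Gjb6 listed at 0 in tumor. Their part in the members' rise was not tested. Of 12 neutrophil markers 11, among them S100a8, S100a9 and Ly6g, were listed at 0 in brain and in untreated tumor. Of 10 hepatocyte markers 8 were listed at 0 in both, among them Alb, Apob, Ahsg and Fgb. Which cells held the members was not tested.

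Promoters show what the 4 members matched in the RefSeq table of mouse promoters (GRCm38.p6) carry upstream, namely Tlr2, Lcn2, Saa3 and Serpina3n. All 4 were called in tumor against brain, and their sequences are printed to show the letters searched for in this pathway. The 250 bases before the RefSeq start were searched on both strands for a pair of NF-kB motifs, the STAT3 motif TTCNNNGAA, the C/EBP motif TTGCNNAA and the interferon response motif, with overlaps allowed. Matches are in capitals. Only bases upstream of the annotated gene are shown, except for Lcn2, where 30 bases around the match are given.
Tlr2: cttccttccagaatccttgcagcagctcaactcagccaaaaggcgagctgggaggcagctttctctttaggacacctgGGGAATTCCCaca
Lcn2: gcccttcctgTTGCTCAAccttgcacagtt
Saa3: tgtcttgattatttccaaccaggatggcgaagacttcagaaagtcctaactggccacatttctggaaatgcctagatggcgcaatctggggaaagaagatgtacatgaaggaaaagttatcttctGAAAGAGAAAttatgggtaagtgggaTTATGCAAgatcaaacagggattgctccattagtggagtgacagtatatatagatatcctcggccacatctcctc
Serpina3n: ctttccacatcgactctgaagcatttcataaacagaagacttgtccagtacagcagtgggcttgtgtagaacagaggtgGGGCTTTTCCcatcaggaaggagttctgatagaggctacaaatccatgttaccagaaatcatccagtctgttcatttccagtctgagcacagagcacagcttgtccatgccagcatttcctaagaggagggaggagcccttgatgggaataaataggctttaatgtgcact

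The Tlr2 stretch lies at chr3:83841768-83841858 on the minus strand, and its NF-kB match, which reads the same on both strands, begins 172 bases before the start. The Lcn2 stretch is chr2:32387936-32387965 (minus strand), with a C/EBP match beginning 216 bases before the start. Saa3 (chr7:46715701-46715926, minus strand) holds an interferon response match at 125 bases and a C/EBP match on the reverse strand at 99 bases. Serpina3n (chr12:104406458-104406707, plus strand) holds an NF-kB match at 171 bases. Of 32851 promoters in the table, 1.41% hold the NF-kB motif found in Serpina3n, 1.53% the NF-kB motif found in Tlr2, 9.56% the C/EBP motif and 2.98% the interferon response motif. The STAT3 motif is in 7.02% of promoters and in none of the 4. A match is a description of letters and not a measured binding site.

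The antibody groups were then compared with untreated tumor to ask how VEGF-A blockade at each dose goes with these genes. Lbp was the member with the clearest difference: it was high in all 6 libraries at 100 and 200 µg. At 50 µg it was about as low as without antibody in the weighted values, but less so in the unweighted sum. Cd14 went the other way at 100 and 200 µg without passing the test. Tlr4 and Hp were high at 200 µg and in a single library at 100 µg. Ly96, Tlr2, Lcn2, Saa3 and Serpina3n were not called at any dose. The comparisons share the untreated libraries and one estimate of the spread.

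At 50 µg none of the 9 members was called, in a comparison in which 0% of 14653 genes were called by limma and 588 had an unadjusted p under 0.05. At 100 µg none was called, where 0.0887% of all genes were. At 200 µg 2 of 9, Lbp and Hp, were called higher and 0 lower, where 2.83% of all genes were called and 2.03% were called higher. Hp reached the level for testing only through its 200 µg libraries, so its calls here and in the trend are no support. For 200 against 50 µg 1 member, Lbp, was called, against 0.990% of genes. In the test for any difference among the 4 tumor groups 1 member, again Lbp, was called, against 0.635% of genes. In a linear trend on dose Lbp, Tlr4 and Hp were called, 3 of 9, against 7.53% of genes. The members' median difference was 0.03, 0.14 and -0.08 at 50, 100 and 200 µg. For all genes it was -0.07, -0.01 and 0.04.

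**Figure D2:**
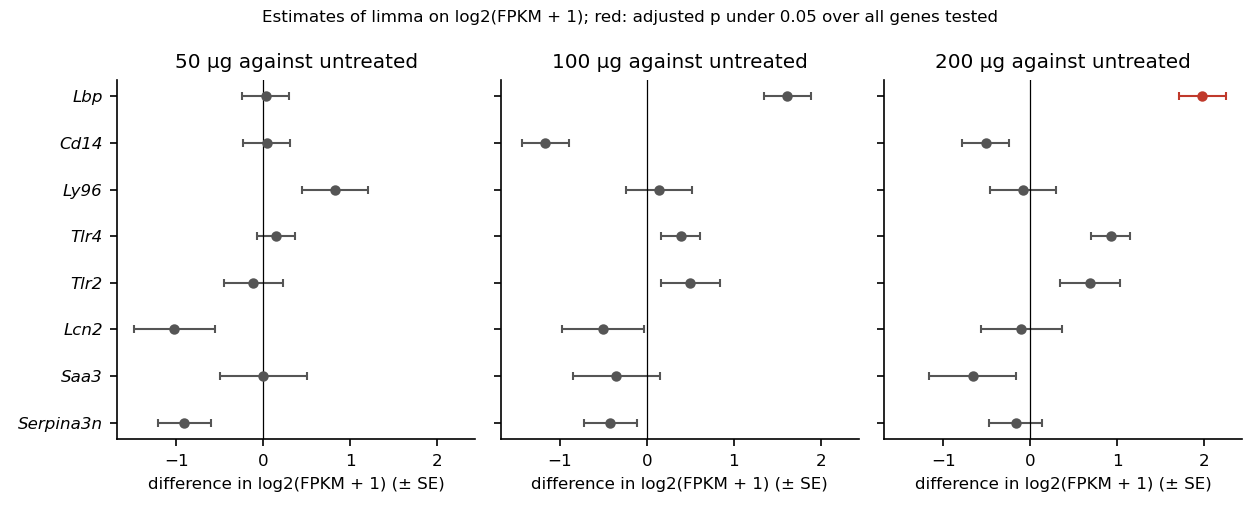
Difference from untreated tumor in log2(FPKM + 1) (x axis) at 50, 100 and 200 µg for 8 of the genes (y axis), as estimated by limma, with bars of 1 standard error. Hp is left out because it was listed at 0 in all untreated tumors. Lbp at 200 µg is the one point in red, which marks an adjusted p under 0.05 over all genes tested.

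Lbp, the secreted LPS carrier (chromosome 2, 158306493 to 158332852 on mm10), was at 12.7, 16.0 and 10.8 FPKM in untreated tumors and 10.6, 20.8 and 10.6 FPKM at 50 µg. At 100 µg it was at 52.2, 39.5 and 35.9 FPKM, and at 200 µg at 62.1, 49.0 and 52.7 FPKM. The lowest library at 100 µg stood above the highest at 0 and 50 µg, while the ranges of 0 and 50 µg overlapped, as did those of 100 and 200 µg. The group means were 13.2 ± 2.64, 14.0 ± 5.91, 42.6 ± 8.59 and 54.6 ± 6.79 FPKM in order of dose (SD, n = 3). The mean was 3.23-fold higher at 100 µg and 4.14-fold higher at 200 µg than in untreated tumor. At 200 µg the log2 fold change was 1.98 (SE 0.27, adjusted p = 0.00993 by limma). At 100 µg it was 1.62 (SE 0.27, adjusted p = 0.0861), which did not pass. At 50 µg it was 0.03 (SE 0.27, adjusted p = 0.991). Transcripts covered 56.2 to 73.9% of the exonic length of Lbp in tumor libraries, and the level is weighted by such shares. Unweighted, Lbp was at 20.5, 37.4 and 44.0 FPKM at 50 µg and 22.8, 26.1 and 20.9 FPKM in untreated tumors (0.47, adjusted p = 0.910 by limma). An unweighted sum adds the FPKM of separate pieces of a gene. In replicate 3 at 50 µg, with 18.9% of its genes in pieces, Lbp lay on 6 transcripts. The longest covered 38.3% of its exonic length. The lowest unweighted value at 100 and 200 µg was 60.7 FPKM.

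Against 50 µg, the 200 µg libraries were higher by 1.95 (SE 0.27, adjusted p = 0.0169 by limma), and the trend was 1.11 per 100 µg (SE 0.19, adjusted p = 0.00987). For any difference among the 4 groups the adjusted p was 0.0179. Without 200 µg replicate 1 or 2 the adjusted p for 200 against 50 µg was 0.0994 and 0.0737 and that for any difference was 0.0773 and 0.0630. Without 50 µg replicate 1 it was 0.0552 for 200 against 50 µg. Lbp was also high outside the libraries with few genes in pieces. Replicates 1 and 2 at 100 µg, at 52.2 and 39.5 FPKM of Lbp, have 5.05 and 7.05% of genes in pieces, against 6.31 to 7.48% in untreated tumors. Without replicate 3 the difference at 100 µg was 1.73 (adjusted p = 0.0739), and without 50 µg replicate 2 it was 1.62 and passed (0.0361). With a term for the 4 libraries the estimate at 200 µg was 2.31 but no longer passed (adjusted p = 0.133). The call at 200 µg also ended when libraries were grouped by the agent label (1.68, adjusted p = 0.149), without untreated replicate 3 (0.0504) and without 200 µg replicate 1 (0.0575). By agent label the calls for 200 against 50 µg (adjusted p = 0.0642), for any difference (0.1485) and in the trend (0.0504) were lost as well. With the unweighted sum those for 200 against 50 µg (0.0832) and for any difference (0.0621) were lost.

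Cd14 (chromosome 18, 36725067 to 36726798), the co-receptor that takes LPS from Lbp, was at 16.9, 14.5 and 18.6 FPKM in untreated tumors and 25.5, 17.7 and 10.9 FPKM at 50 µg. It was at 5.49, 6.77 and 8.52 FPKM at 100 µg and at 11.9, 10.4 and 11.8 FPKM at 200 µg. Every library at 100 and at 200 µg lay below every untreated library, and the lowest value of all was at 100 µg and not at the highest dose. The 50 µg libraries overlapped with both the untreated and the 200 µg group. The mean was 16.7 ± 2.08 FPKM in untreated tumor, 6.93 ± 1.52 FPKM at 100 µg (2.41-fold lower) and 11.4 ± 0.875 FPKM at 200 µg (1.47-fold lower; SD, n = 3).

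None of the Cd14 differences passed. The log2 fold change was -1.17 at 100 µg (SE 0.27, adjusted p = 0.201 by limma) and -0.51 at 200 µg (SE 0.27, adjusted p = 0.281). Leaving out replicate 3 at 50 and at 100 µg, the 2 libraries that stand apart, gave -1.31 at 100 µg (adjusted p = 0.0388), an alternative added after the data were seen. The test for any difference among the tumor groups passed without 50 µg replicate 3 (adjusted p = 0.0400, against 0.116 with it). The summed level of 10 microglia markers was lower in the same groups. It was 118 to 220 FPKM in untreated tumor, 122 to 202 FPKM at 50 µg, 41.8 to 64.4 FPKM at 100 µg and 36.9 to 59.6 FPKM at 200 µg, and 1 of 6 tested was called lower at 200 µg. Siglech, Gpr34 and Slc2a5 were listed at 0 at both higher doses, but also in 3, 2 and 2 of the 3 untreated tumors. The sum of 16 monocyte and macrophage markers was 216 to 454 FPKM in untreated tumor, 172 to 362 FPKM at 100 µg and 272 to 359 FPKM at 200 µg, with none at 0 throughout. The part of either list in the level of Cd14 was not tested.

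The balance of carrier and co-receptor was then read within each library. The ratio of Lbp to Cd14 was 0.813 ± 0.268 in untreated tumors and 0.855 ± 0.394 at 50 µg. It was 6.52 ± 2.72 at 100 µg and 4.80 ± 0.391 at 200 µg (SD, n = 3). A ratio within a library does not depend on its total. All 6 ratios at the higher doses exceeded all 6 at 0 and 50 µg. Lbp alone already splits these libraries, with a lowest value of 35.9 FPKM against a highest of 20.8 FPKM. The split of the ratio is thus a description and no support. By the agent label, replicate 3 at 50 µg, at a ratio of 0.972, counts as 100 µg and breaks the split. Over the 12 tumor libraries the Pearson correlation of Lbp with Cd14 was -0.69, given as a description, since the libraries share the dose groups.

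**Figure D3:**
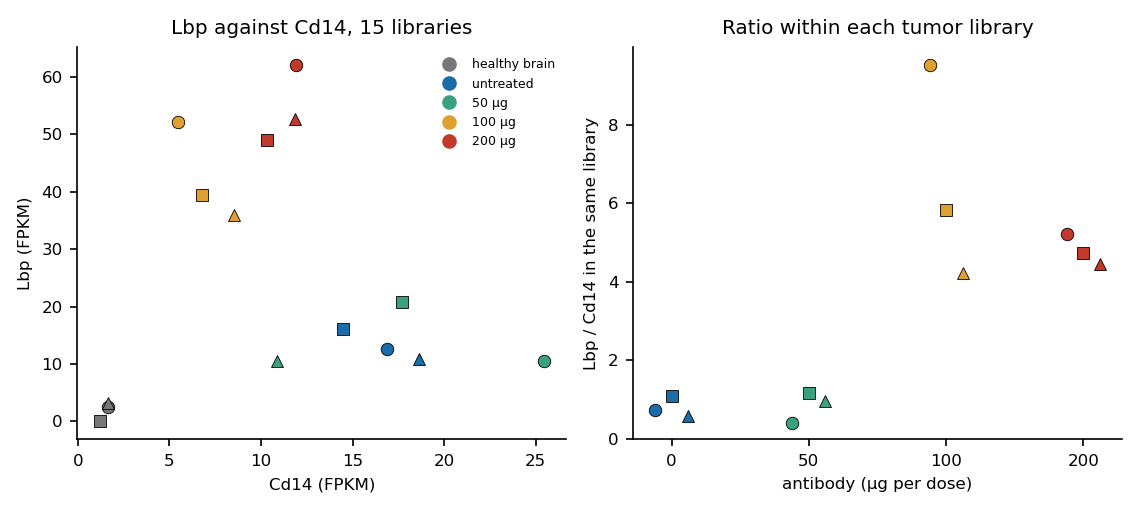
Left, Lbp (y axis) against Cd14 (x axis), both in FPKM, in the 15 libraries, coloured by group with symbols for replicate numbers as in the plot of levels. Right, ratio of Lbp to Cd14 within each tumor library (y axis) by dose in µg (x axis, evenly spaced). The libraries at 100 and 200 µg lie at high Lbp and low Cd14, with mean ratios of 6.52 and 4.80 against 0.813 without antibody.

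Ly96, the partner of Tlr4, was at 3.67, 4.08 and 4.38 FPKM in untreated tumors, 4.27, 6.54 and 16.8 FPKM at 50 µg, 3.54, 5.63 and 4.70 FPKM at 100 µg and 2.71, 4.69 and 4.12 FPKM at 200 µg. Replicate 3 at 50 µg, the library with 18.9% of its genes in pieces, held the high value, and all groups overlapped with untreated tumor. The log2 fold changes were 0.83, 0.14 and -0.08 at 50, 100 and 200 µg (adjusted p = 0.889, 0.966 and 0.923 by limma). Ly96 rests on 28 to 137 estimated fragments in a tumor library.

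Tlr4 (chromosome 4, 66827584 to 66930284) was at 2.48, 3.04 and 2.94 FPKM in untreated tumors and 3.51, 3.11 and 3.04 FPKM at 50 µg. At 100 µg it was at 2.90, 3.32 and 6.39 FPKM, and at 200 µg at 6.36, 5.89 and 6.47 FPKM. Replicate 3 at 100 µg lay with the 200 µg libraries and its partners with the untreated ones. The mean was 2.82 ± 0.299 FPKM without antibody and 6.24 ± 0.308 FPKM at 200 µg (SD, n = 3), 2.21-fold higher, and the log2 difference of 0.93 missed the threshold (SE 0.22, adjusted p = 0.0554 by limma). It passed in the trend, at 0.47 per 100 µg (SE 0.10, adjusted p = 0.0183), and at 200 µg without replicate 3 of the 100 µg group (adjusted p = 0.00911) or of the 50 µg group (0.0442). The trend was lost without 200 µg replicate 1 (0.0767) or 2 (0.0643). For 200 against 50 µg the adjusted p was 0.0994, and 0.0206 without 100 µg replicate 3. Grouped by agent label, Tlr4 passed at 200 µg (adjusted p = 0.0257), for 200 against 50 µg (0.0142), for any difference (0.0255) and in the trend (0.0186). Without the 4 libraries of disagreeing label it passed at 200 µg (0.0340) and for 200 against 50 µg (0.0495). With the unweighted sum Tlr4 fell below the level for testing among tumors, so none of these results could be checked with it. That sum takes only transcripts with at least 50% of their length on the gene's exons. For Tlr4 it was 0 in every library at 100 and 200 µg, in 50 µg replicates 2 and 3 and in untreated replicate 2.

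The level of Tlr4 went with assembly as closely as with dose. It was 5.89 to 6.47 FPKM in the 4 libraries with few genes in pieces and 2.48 to 3.51 FPKM in the other 8, with no overlap. With a term for these 4 libraries the difference at 200 µg was 0.08 (adjusted p = 0.931) and the trend was 0.06 (adjusted p = 0.851). That term rests on replicate 3 at 100 µg against its partners.

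Tlr2 was at 3.01, 1.52 and 4.45 FPKM in untreated tumors, 2.29, 2.23 and 3.07 FPKM at 50 µg, 3.13, 3.26 and 7.90 FPKM at 100 µg and 6.07, 5.29 and 4.19 FPKM at 200 µg. Its highest value was again in replicate 3 at 100 µg, and the 200 µg group overlapped with untreated tumor. The log2 fold change at 200 µg was 0.69 (SE 0.34, adjusted p = 0.253 by limma). With the term for the 4 libraries it was -0.40 (adjusted p = 0.811), the opposite sign.

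**Figure D4:**
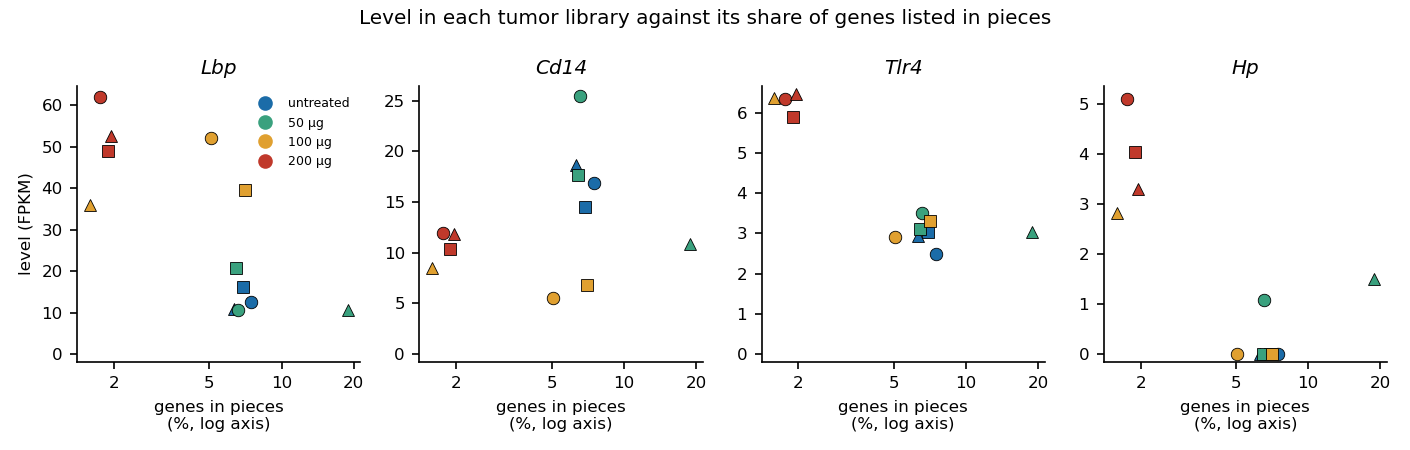
Level in FPKM (y axis) of Lbp, Cd14, Tlr4 and Hp in each of the 12 tumor libraries against the percent of its genes listed in pieces (x axis, log scale), coloured by dose, with symbols for replicate numbers. Tlr4 and Hp separate the 4 libraries below 3% from the other 8, while Lbp is also high in 2 libraries at 100 µg with 5.05 and 7.05% of genes in pieces.

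Hp, haptoglobin, the plasma protein that binds free hemoglobin (chromosome 8, 109575128 to 109579172), was listed at 0 in all 3 untreated tumors. At 50 µg it was at 1.09, 0 and 1.51 FPKM, at 100 µg at 0, 0 and 2.82 FPKM, and at 200 µg at 5.11, 4.05 and 3.30 FPKM. All 200 µg libraries lay above every library of the other groups. It was called at 200 µg (adjusted p = 0.0376 by limma) and in the trend (adjusted p = 0.0206), with no fold given against libraries at 0. The group means of Hp were 0, 0.865, 0.940 and 4.15 FPKM in order of dose. Only the last exceeds the 1 FPKM needed for testing. Hp thus entered the fit through the values under test, and its calls are descriptions and no support.

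The Hp call at 200 µg was lost without any single untreated or 200 µg library (adjusted p = 0.0625 to 0.142), and the trend was lost without 200 µg replicate 1 (0.0880) or 2 (0.0758). Neither passed with the unweighted sum (0.0764 and 0.0526). For 200 against 50 µg the adjusted p was 0.121, and 0.0267 without 100 µg replicate 3. By agent label Hp passed at 200 µg (0.0443), for 200 against 50 µg (0.0246) and for any difference (0.0473), and without the 4 libraries of disagreeing label the trend was lost (0.0546). As with Tlr4, the 4 libraries with few genes in pieces held the high values, 2.82 to 5.11 FPKM against 0 to 1.51 FPKM, and with a term for them the adjusted p at 200 µg was 0.826. Hp was listed in 6 of 12 tumor libraries, on 28 to 163 estimated fragments each, so a 0 may be a transcript that was not assembled. All 10 hepatocyte markers, Alb among them, were listed at 0 in the 200 µg libraries, and which cells held Hp was not tested.

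Lcn2 was at 21.6, 11.4 and 46.6 FPKM in untreated tumors, 6.75, 14.2 and 12.4 FPKM at 50 µg, 14.5, 13.7 and 19.5 FPKM at 100 µg and 32.3, 20.8 and 14.0 FPKM at 200 µg. The untreated group alone spanned 11.4 to 46.6 FPKM, and every dose group overlapped with it. The log2 fold changes were -1.03, -0.50 and -0.10 at 50, 100 and 200 µg (adjusted p = 0.889, 0.836 and 0.922 by limma). Neutrophils are a known source of Lcn2. Of 12 neutrophil markers 11 were listed at 0 at 100 µg and 9 at 200 µg, while at 50 µg the sum reached 25.7 FPKM in 1 library. S100a8 was at 13.4 FPKM in replicate 1 at 50 µg and at 5.81 FPKM in replicate 3 at 200 µg. The part of neutrophils in the level of Lcn2 was not tested.

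Saa3 was at 1.44, 1.38 and 9.36 FPKM in untreated tumors, 2.59, 2.09 and 4.43 FPKM at 50 µg, 2.59, 2.44 and 1.35 FPKM at 100 µg and 2.09, 1.01 and 1.46 FPKM at 200 µg. The group means of 4.06, 3.04, 2.12 and 1.52 FPKM, in order of dose, do not stand apart, the first rests on replicate 3, and all groups overlapped with untreated tumor. The log2 fold changes were 0.00, -0.35 and -0.66 (adjusted p = 1, 0.914 and 0.452 by limma). Its transcripts covered 20.8 to 21.3% of the annotated exonic length, which includes a long alternative model. Its level is thus weighted down to about that share, as in untreated replicate 1, at 1.44 FPKM against 7.03 FPKM unweighted.

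Serpina3n (chromosome 12, 104406729 to 104414329) was at 364, 330 and 300 FPKM in untreated tumors, 218, 246 and 99.9 FPKM at 50 µg, 215, 235 and 296 FPKM at 100 µg and 258, 336 and 294 FPKM at 200 µg. The lowest value was in replicate 3 at 50 µg, the library in which Ly96 was highest. The groups at 50 and 100 µg lay wholly below the untreated one, and the 200 µg group overlapped with it. The log2 fold changes were -0.91, -0.42 and -0.17 (adjusted p = 0.889, 0.767 and 0.773 by limma), so no difference passed. Every tumor library still lay far above every brain library, which held at most 10.5 FPKM. Of the 10 other genes of the Serpina3 cluster on chromosome 12 only Serpina3g and Serpina3m reached the level for testing, and neither was called at 200 µg (1.00 and 0.28, adjusted p = 0.568 and 0.837). These genes are close in sequence, and reads may be split between them.

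Counts of groups that do not overlap varied with dose for all genes. Against untreated tumor 9.41% of genes did not overlap at 50 µg, 14.6% at 100 µg and 38.9% at 200 µg. Among the members Tlr4 was wholly higher and Serpina3n wholly lower at 50 µg. At 100 µg Lbp was wholly higher and Cd14 and Serpina3n were wholly lower. At 200 µg Lbp, Tlr4 and Hp were wholly higher and Cd14 was wholly lower.

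The rest of the pathway was read from 11 lists with 161 genes in all. In untreated tumor against brain 79 of 100 tested were called, 68 higher and 11 lower, against 60.7% of all genes, with 32.7% called higher. The list counts for this comparison below stand beside the same shares. The genes called higher include some listed at 0 in brain, such as Casp4, Msr1, Ccl5, Acod1 and Timp1. These entered the fit only through their tumor levels, so their calls are descriptions and no support. At 200 µg 5 of 106 tested were called, 3 higher and 2 lower, against 2.83%. At 100 µg 1 was called, and at 50 µg none.

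Genes that handle LPS beside the members included 4 higher of 6 tested in tumor. Casp4, the mouse caspase-11 that senses LPS inside cells, was listed at 0 in brain and at 13.4 ± 2.29 FPKM in untreated tumor (adjusted p = 1.53e-05 by limma). Msr1, a scavenger receptor of macrophages, was likewise at 0 and at 4.47 ± 1.69 FPKM (SD, n = 3). Scarb1, a lipoprotein receptor, rose by 0.98 and Itgb2, an integrin chain of white blood cells, by 1.98 on the log2 scale. Of the other Toll-like receptors and their chaperones 4 of 5 tested rose, among them Hsp90b1 (2.06), Unc93b1 (2.04) and Tlr3 (1.57), a sensor of double-stranded RNA. Neither list had a call at 200 µg among 9 tested genes each, with medians of -0.01 and -0.17.

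Genes of the relay from the receptors to NF-kB were set beside all genes tested in tumor against brain, of which 60.7% were called and 32.7% were called higher. Among adaptors and kinases 12 of 20 tested rose and none fell, the 4 with the smallest p being Irak1 (1.78), Tirap (2.05), Irak4 (1.49) and Chuk (1.43). Of the brakes on this signal 10 of 12 rose, such as Socs1 (3.64) and Nfkbie (3.31), and 1 fell. Of 5 NF-kB subunits Rela (2.01), Relb (1.99) and Nfkb1 (1.16) rose and Nfkb2 fell by 1.19, yet Nfkb1 and Nfkb2 changed sign with the unweighted sum (-0.08 and 2.01). At 200 µg none of 21 adaptors and kinases, 13 brakes or 5 subunits was called. Nearest were Tab2 (0.85, adjusted p = 0.104 by limma) and Socs1, at 15.5 ± 5.30 FPKM without antibody and 6.87 ± 1.06 FPKM at 200 µg (-1.03, adjusted p = 0.109).

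Cytokines and enzymes that Toll-like receptors induce were 7 higher and 1 lower of 9 tested in tumor. Ccl5 and Acod1, the enzyme that makes itaconate, were listed at 0 in brain and at 36.2 ± 10.3 and 26.4 ± 9.02 FPKM in untreated tumor (SD, n = 3), and Cxcl10 rose by 5.55 on the log2 scale. At 200 µg none of 8 was called, and the median was -0.55 against 0.04 for all genes. Acod1 was at 7.49 FPKM on average at 100 µg (adjusted p = 0.201 by limma) and at 8.68 FPKM at 200 µg (-1.50, adjusted p = 0.0756).

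Inducers of the acute phase and their signal carriers were 10 higher and 2 lower of 15 tested in tumor. Socs3, which STAT3 induces, rose by 4.39, Stat3 by 2.93, the receptor Tnfrsf1a by 2.51 and Cebpd by 1.98 on the log2 scale. At 200 µg 1 of 16 was called, and 14 of the 16 estimates were positive, as were 52.7% of those of all genes. This was Osmr, the receptor of oncostatin M, a cytokine of the interleukin 6 family. Osmr was at 5.69, 6.68 and 6.52 FPKM in untreated tumors, 4.77, 6.72 and 5.35 FPKM at 50 µg, 9.22, 9.98 and 12.4 FPKM at 100 µg and 16.5, 12.2 and 14.1 FPKM at 200 µg. As with Lbp, all 6 libraries at the higher doses lay above the 6 others. The log2 fold change at 200 µg was 1.06 (SE 0.18, adjusted p = 0.0212 by limma), and at 100 µg it was 0.65 (adjusted p = 0.279). The call at 200 µg was lost without any single untreated library (0.0710, 0.0672 and 0.0798 in replicate order), without 200 µg replicate 1 (0.102) or 2 (0.0623), and with the term for the 4 libraries (0.412). Il6 itself was listed at 0 in 8 of the 12 tumor libraries and below 1 FPKM in the rest.

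Of the other acute phase proteins 9 were tested in tumor against brain, with 6 higher and 1 lower. C4b, a complement protein, rose from 2.34 to 51.9 FPKM on average (log2 fold change 3.98). Itih3 fell, from a mean of 5.75 FPKM in brain to 0 in all untreated tumors. At 200 µg 1 of 8 tested rose and 2 fell, with a median of -0.43. Cp, the copper-carrying ferroxidase ceruloplasmin, was at 5.41, 3.94 and 8.27 FPKM in untreated tumors and 43.6, 38.4 and 36.6 FPKM at 200 µg (2.60, SE 0.24, adjusted p = 0.00181 by limma). Cp was also the one pathway gene called at 100 µg, at 22.5, 17.9 and 27.6 FPKM (1.81, adjusted p = 0.0376), a call lost without replicate 1 or 2 of the untreated, 100 or 200 µg group (0.0799 to 0.162).

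Mt2 and Ttr fell at 200 µg. Mt2, a metal-binding metallothionein, was at 893, 427 and 271 FPKM in untreated tumors, 405, 435 and 11.2 FPKM at 100 µg and 8.03, 10.6 and 11.2 FPKM at 200 µg. Its low values were those of the 4 libraries with few genes in pieces. Ttr, a thyroid hormone carrier made by the choroid plexus, was at 49.6, 44.2 and 3.54 FPKM in untreated tumors and listed at 0 in replicate 3 at 50 and at 100 µg and in all 200 µg libraries, so its low values were not limited to those 4. Their adjusted p at 200 µg was 0.0350 and 0.0364 by limma. Either call was lost in 7 of the 12 cases that leave out a tumor library, and with the term for the 4 libraries (0.905 and 0.609). In brain Ttr ranged from 11.3 to 1259 FPKM.

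The list of reactive astrocyte genes, a state for which Lcn2 and Serpina3n are often used as marks, had 14 higher and 3 lower of 18 tested in tumor, with a median of 3.01. Vim rose by 6.31, Cd44 by 4.77 and Psmb8 by 5.15 on the log2 scale, and Timp1 was listed at 0 in brain. Gfap, of the same list, went the other way, from a mean of 26.9 FPKM in brain to 5.38 FPKM in untreated tumor. The means of S1pr3, Hspb1, Amigo2 and Aspg were also lower in untreated tumor. Whether astrocytes held the members was not tested. At 200 µg 3 of 16 were called, Cp, Osmr and Tm4sf1, a membrane protein. Tm4sf1 was at 20.2 ± 1.92 FPKM in untreated tumor and 59.2 ± 11.2 FPKM at 200 µg (1.50, adjusted p = 0.00908 by limma, but 0.0511 without 200 µg replicate 1). Among receptors and partners of the secreted members 3 rose and 2 fell of 5 in tumor, with Hmox1, the heme oxygenase downstream of haptoglobin uptake, up by 3.60 and Slc22a17, a receptor for Lcn2, down at -2.92. None of these 5 was called at 200 µg.

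**Figure D5:**
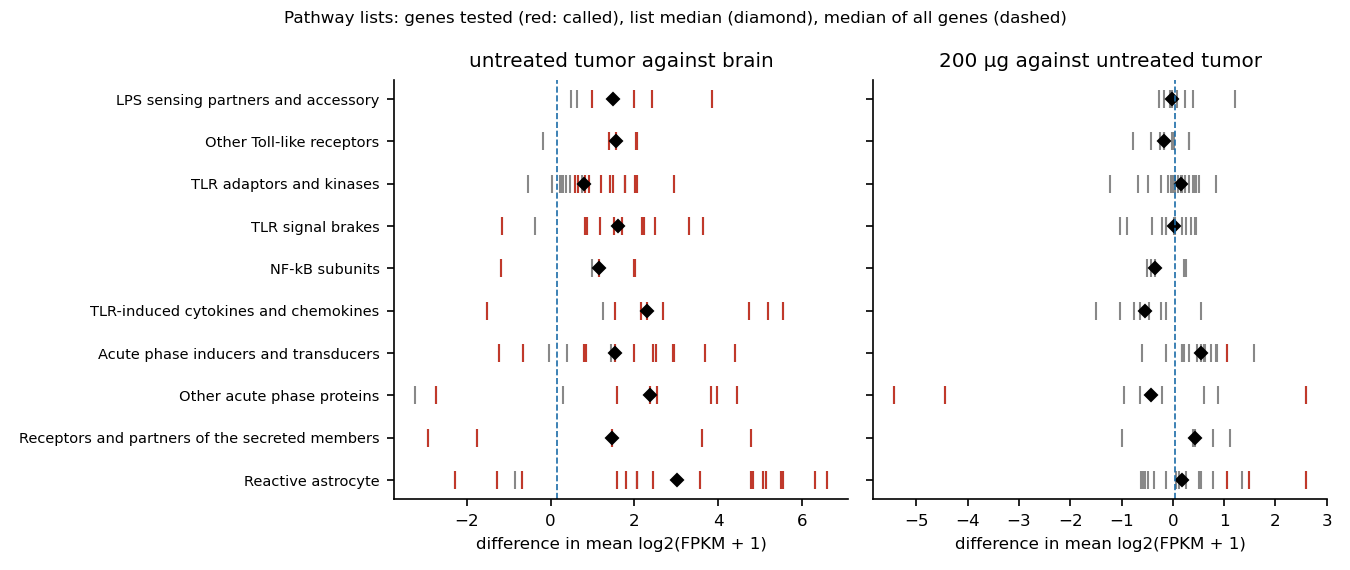
Difference in mean log2(FPKM + 1) (x axis) of every tested gene of 10 pathway lists (y axis), for untreated tumor against brain (left) and 200 µg against untreated tumor (right). Each tick is a gene, in red where its adjusted p was under 0.05, diamonds are list medians, and the dashed line is the median of all genes, 0.14 on the left and 0.04 on the right. Ticks for genes listed at 0 in one group depend on the pseudocount of 1.

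Genes whose level followed a member most closely were picked by Pearson correlation of log2(FPKM + 1) over the 12 tumor libraries, out of 14652 others. High values are a result of that choice, and libraries of a group share the dose. Lbp was most like Fgf1, a fibroblast growth factor (r = 0.977), Serpinb8, a protease inhibitor (0.972), and Slc1a4, a neutral amino acid transporter (0.969). Over all 15 libraries Lbp was most like Mmp11 (0.971), Chmp1b (0.964) and Osmr (0.962). Cd14 was most like Mal, a myelin protein (0.924), Sept11 (0.916) and Abhd3 (0.900). Tlr4 was nearest to Gm43566, Gm17110 and Ddx5 (0.969 to 0.966), and Hp to Pds5a, Zfp260 and Ormdl1 (0.977 to 0.970). Among the members the highest correlation was 0.91, between Tlr4 and Hp, which both separated the 4 libraries with few genes in pieces.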

How the data were processed

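RNA was measured in 15 libraries, 3 in each of 5 groups taken from the titles. Per the submitters' processing notes the authors aligned reads with STAR to mm10 and assembled transcripts with Cufflinks. The sources used here do not give versions, settings or an annotation. For each library the authors deposited transcripts with exon coordinates and other attributes, among them FPKM and coverage, with no gene names. Each library was assembled apart, so a sparse gene can appear in pieces, and an exact 0 can be a failed assembly.

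Transcripts were placed on genes of the GENCODE vM21 basic annotation of mm10 with Python 3.11.15 and bedtools 2.31.1. A gene's value was the sum of FPKM multiplied by the share of its exonic length that a transcript covered. Strand was ignored, and single-exon transcripts under 200 bases were set aside. Depth was estimated from the deposited FPKM, its upper confidence bound and the length of transcripts. Differences were tested with limma 3.58.1 in R 4.3.3 on log2(FPKM + 1), a pseudocount of 1, a scale that shrinks differences of low genes. Only genes averaging 1 FPKM or more entered a fit. The p-values, for both directions, received Benjamini-Hochberg adjustment across all genes tested, with a call at an adjusted p under 0.05. Brain and untreated tumor were fitted over 6 libraries, and the 12 tumor libraries in a single fit, which makes 7 comparisons with the trend and the test among all tumor groups. On data simulated for 12 tumor libraries with 3 a group, the procedure was tested for known changes.

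Members and gene lists were chosen with earlier results of these data known. Named genes were the 9 members, up to 4 called genes of a pathway list and comparison by smallest p, or the 2 of smallest p where none was called, and the 3 genes most like a member. Il6, Gfap, S1pr3, Hspb1, Amigo2 and Aspg are named outside this rule, after their values were seen. Same-numbered replicates were checked for pairing: correlations of their deviations were -0.08 to 0.10 over 18 pairs of tumor libraries, so the numbers were not treated as pairs.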

Additional observations from a re-analysis of the deposited data

How the results depend on the processing

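No called difference of a member changed sign in any alternative. Of 1524 alternative values of the members' tests, 1449 kept their side of the threshold, 47 lost a call and 28 gained one. A member that was not tested in an alternative is not counted there. In tumor against brain the number of members called stayed at 6 to 8 without a single library. At 50 µg it stayed at 0 throughout.

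The counts of members called were 0, 2, 1, 1 and 3 at 100 µg, at 200 µg, for 200 against 50 µg, among all tumor groups and in the trend. Leaving out single libraries gave 0 to 1, 0 to 3, 0 to 3, 0 to 3 and 1 to 3. The unweighted sum of FPKM gave 1 at 200 µg, 0 for 200 against 50 µg, 0 among all groups and 1 in the trend. Tlr4, called in the trend, was not tested with that sum. Intron-matched transcripts gave 1 at 200 µg and 1 in the trend, and a pseudocount of 0.1 gave 1 at 200 µg. A model term for those 4 libraries whose genes were rarely in pieces gave 0 in all of these. Grouping by agent label gave 3 for 200 against 50 µg and 3 among all groups, in both Cd14, Hp and Tlr4, while Lbp lost its call (adjusted p = 0.0642 and 0.1485 by limma), and leaving out the 4 libraries with a disagreeing label gave 3 and 0. Leaving out replicate 3 at both 50 and 100 µg, chosen after seeing the data, gave 1 at 100 µg, 4 for 200 against 50 µg and 4 among all groups. With the replicate number as a block, a pairing the data did not bear out, the count among all groups was 0 (Lbp adjusted p = 0.0501 by limma), and no other count of members moved by over 1.5 times.

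Pathway genes called at 200 µg numbered 5, and 2 with the unweighted sum, 1 with intron-matched transcripts, 3 by agent label, 0 with the term for the 4 libraries, 15 without both replicates 3 and 1 to 11 without single libraries, the 11 without replicate 3 at 100 µg. In tumor against brain they numbered 79, and 49 with the unweighted sum, under which Nfkb1 was -0.075 and Nfkb2 2.01, with Nfkb1 at -0.24 for intron-matched transcripts. Median-of-ratios scaling changed the split for 200 against 50 µg from 121 higher and 24 lower genes to 53 and 25. The cause of these moves was not tested.

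Groups of 3 libraries from separate assemblies limit what can be seen. Low members (Hp, Ly96, Saa3) rest on few fragments, and depth is an estimate, so no counting intervals are given.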

Other observations

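Other cell markers showed the following summed levels. The 8 dendritic cell markers ranged from 7.87 to 16.5 FPKM in untreated tumors and from 5.57 to 15.3 FPKM at 200 µg, and of 4 tested Xcr1 was lower (-1.95, adjusted p = 0.0345 by limma) and Zbtb46 higher (0.74, adjusted p = 0.0380). The 8 oligodendrocyte markers ranged from 62.3 to 93.2 FPKM and from 49.7 to 58.8 FPKM, and 2 of 7 tested were lower at 200 µg. The 9 endothelial markers ranged from 55.7 to 87.7 FPKM and from 33.7 to 66.5 FPKM, with none called. The 10 astrocyte markers ranged from 79.7 to 115 FPKM and from 105 to 183 FPKM, with 1 of 4 tested higher. Of the 8 choroid plexus markers, 5 were listed at 0 in untreated tumors.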
